A study of Mus musculus with 12 samples.

Results

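The cartilage transcription factor genes Sox9, Sox5 and Sox6, and 7 genes of cartilage matrix and secreted proteins, Acan, Hapln1, Matn1, Matn3, Matn4, Chad and Cytl1, were followed through RNA-seq of mouse periosteal stem cells (PSCs) and osteoclasts. The 10 genes were taken by symbol, and all 10 were found in each of 3 tables: 1 of 53715 genes for 5 PSC libraries, 1 of 48709 genes for the library PSC control 3, and 1 of 46517 genes for 6 osteoclast libraries. Of the 10, Cytl1 and Matn3 were higher in the PSC libraries labelled KO than in controls 1 and 2, and the other 8 did not pass the test. Both calls were lost when control 3 was added to the fit, with Matn3 at a log2 fold change of 1.14 in place of 1.16 and Cytl1 at 0.69 in place of 1.94.

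Cartilage is built by chondrocytes, which embed themselves in a network of type II collagen filled with the large proteoglycan aggrecan. SOX9 is the transcription factor required for a cell to become a chondrocyte, and SOX5 and SOX6, which are closely related to each other, act with it on the genes of the matrix. Aggrecan (Acan) carries chondroitin sulfate chains that hold water, and link protein (Hapln1) fastens it to hyaluronan. Matrilins (Matn1, Matn3, Matn4) connect collagen fibrils and proteoglycans, chondroadherin (Chad) is a leucine-rich repeat protein that binds collagen and cells, and Cytl1 encodes a small secreted protein that is abundant in cartilage. The periosteum is the sheet of connective tissue on the outside of bones. Periosteal cells make bone without a cartilage template in the normal growing skeleton and can form cartilage when a fracture heals.

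The mutant mice were Prmt5 flox/Δ Ctsk-Cre, with 1 floxed and 1 deleted allele of the arginine methyltransferase gene Prmt5, and the control mice of the PSC libraries were Prmt5 flox/+ Ctsk-Cre. Ctsk-Cre is active in osteoclasts and in periosteal progenitors, and both PSC groups also carried the CAG-CAT-EGFP reporter, which turns cells green once Cre has acted. The labels give 3 libraries for mutant and 3 for control mice in each cell type, 12 in all, from C57BL/6 mice. PSCs came from mice of 3 to 6 weeks and were sorted as CD45-, Ter119-, CD31-, 6C3-, CD51+, CD90-, CD105- and CD200+ cells. Osteoclasts were grown in culture from mice of 11 weeks and collected 72 h after RANKL, the cytokine that drives osteoclast formation, and the sources used here do not say whether their controls carried Cre. In these bulk libraries, fewer cells of a type and less RNA per cell cannot be told apart.

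Prmt5, the deleted gene, was read first as a check of the labels. Levels are in RPKM, reads scaled to exon length and to the mapped reads of a library. Prmt5 had 8.40, 6.31 and 8.08 RPKM in PSC libraries labelled KO, against 6.29 and 8.31 RPKM in controls 1 and 2 (control 3, 4.32 RPKM). It was thus not lower in the PSC libraries labelled KO (log2 fold change 0.05, SE 0.166, adjusted p = 0.868 from limma), and the PSC groups are named here by their labels. Reads outside the deleted part of the gene count in these values, and their part in this result was not tested. The paper reports lower Prmt5 mRNA and protein in PSCs of the mutant mice. Control 3 stood apart, with r = 0.842 to 0.860 across 10944 genes against each of the other 5 libraries, which correlated with each other at r = 0.948 to 0.982. Mapped reads implied by the steps of the RPKM values were 9932976 to 13928745 in the libraries labelled KO, 11376003 and 10789165 in controls 1 and 2, and 6958265 in control 3. The main PSC comparison therefore set KO 1 to 3 against controls 1 and 2, which share a table, and control 3 is given beside it.

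The PSC libraries held the transcripts of the sort and lineage markers Ctsk (156 to 192 RPKM over all 6 libraries), Cd200 (40.4 to 69.9 RPKM) and Itgav (CD51, 11.5 to 15.9 RPKM). Postn, which encodes the periosteal matrix protein periostin, was lower in the libraries labelled KO, with 188, 240 and 196 RPKM against 488 and 521 RPKM in controls 1 and 2 (control 3, 737 RPKM; log2 fold change -1.28, adjusted p = 0.00333 from limma). Transcripts of the proteins that the gate selects against were present, with Ptprc (CD45) at 0.62 to 1.14 RPKM, Thy1 (CD90) at 0.17 to 1.72 RPKM and Eng (CD105) at 1.46 to 6.62 RPKM. Enpep (6C3) was higher in the libraries labelled KO, with 7.22, 5.11 and 7.97 RPKM against 2.39 and 3.41 RPKM in controls 1 and 2 (control 3, 1.92 RPKM; log2 fold change 0.99, adjusted p = 0.0251 from limma). Pecam1 (CD31) was also higher in the libraries labelled KO, with 6.72, 3.24 and 3.31 RPKM in KO against 0.67 and 0.54 RPKM in controls 1 and 2 (control 3, 0.23 RPKM; log2 fold change 1.70, adjusted p = 0.0107 from limma). The sums of 24 further cartilage matrix genes, 11 osteoblast and osteocyte genes, 7 tendon genes and 12 blood cell genes were each at least 845 RPKM in every library. A few genes carry these sums, and cells of the periosteum express some of them, among them Col1a1.

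The transcription start regions of the called members and of Chad, the member with the highest level, are shown because these are the sequences in front of the transcripts counted here. RefSeq windows on GRCm38.p6, from 250 bases before to 50 after the start of a gene, matched 9 of the 10 members, and Sox9 was not among them. The windows of Cytl1 (chr5:37735269-37735568, plus strand), Matn3 (chr12:8947679-8947978, plus strand) and Chad (chr11:94564797-94565096, plus strand) read as follows, with the bases from the start on, and a TATAAA box where there is one, in capitals.
Cytl1: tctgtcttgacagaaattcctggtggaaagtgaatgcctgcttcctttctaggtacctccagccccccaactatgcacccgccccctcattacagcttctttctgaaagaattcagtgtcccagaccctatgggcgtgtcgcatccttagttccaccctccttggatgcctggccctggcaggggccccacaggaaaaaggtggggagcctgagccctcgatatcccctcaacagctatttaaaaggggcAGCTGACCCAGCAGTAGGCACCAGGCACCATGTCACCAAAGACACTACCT
Matn3: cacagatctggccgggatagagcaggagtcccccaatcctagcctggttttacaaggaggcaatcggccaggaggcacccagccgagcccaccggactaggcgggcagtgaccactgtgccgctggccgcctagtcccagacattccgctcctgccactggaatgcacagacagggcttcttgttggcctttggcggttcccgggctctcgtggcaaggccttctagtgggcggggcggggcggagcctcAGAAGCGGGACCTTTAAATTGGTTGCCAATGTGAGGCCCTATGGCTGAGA
Chad: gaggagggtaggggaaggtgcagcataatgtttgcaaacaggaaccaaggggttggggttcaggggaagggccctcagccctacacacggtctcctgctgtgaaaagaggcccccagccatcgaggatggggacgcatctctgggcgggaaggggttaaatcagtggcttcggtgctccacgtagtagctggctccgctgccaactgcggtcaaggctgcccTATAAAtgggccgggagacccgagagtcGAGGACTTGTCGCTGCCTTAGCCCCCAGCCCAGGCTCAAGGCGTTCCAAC
Chad held TATAAA 28 bases before its start, a motif that 8.32% of all 32841 windows held on the sense strand. The hexamers ACAAAG and ACAATG, forms of the core sequence that SOX proteins bind, were searched on both strands and stood in 28.6% of all windows. None of the 8 windows of the 7 matrix and secreted protein members held one, and 6 of the 7 windows of Sox5 and Sox6 did. Apart from that of Sox5, these Sox windows are alternative starts of the same gene, Sox6, so they are not separate cases. G and C made up 36.7% to 63.3% of the Sox windows and 52.7% to 74% of the others. The part of this base composition in the matches was not tested. A hexamer match is a description of these letters, and a window without one says nothing of binding elsewhere.

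The levels of the members differed widely. Chad, on chromosome 11 from 94565047 to 94569127, averaged 4884 RPKM over the 5 libraries of one table and ranked 3 among all genes there. Matn3 (132 RPKM), Cytl1 (122 RPKM), Acan (111 RPKM), Hapln1 (73.5 RPKM), Matn4 (63.1 RPKM) and Sox9 (56.5 RPKM) followed, and each of these overlapped its neighbour in that order when single libraries were compared. Sox5 (2.26 RPKM), Matn1 (2.18 RPKM) and Sox6 (1.87 RPKM) lay far below Sox9 and overlapped each other. RPKM is scaled to exon length, so these levels can be compared between genes.

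**Figure D1:**
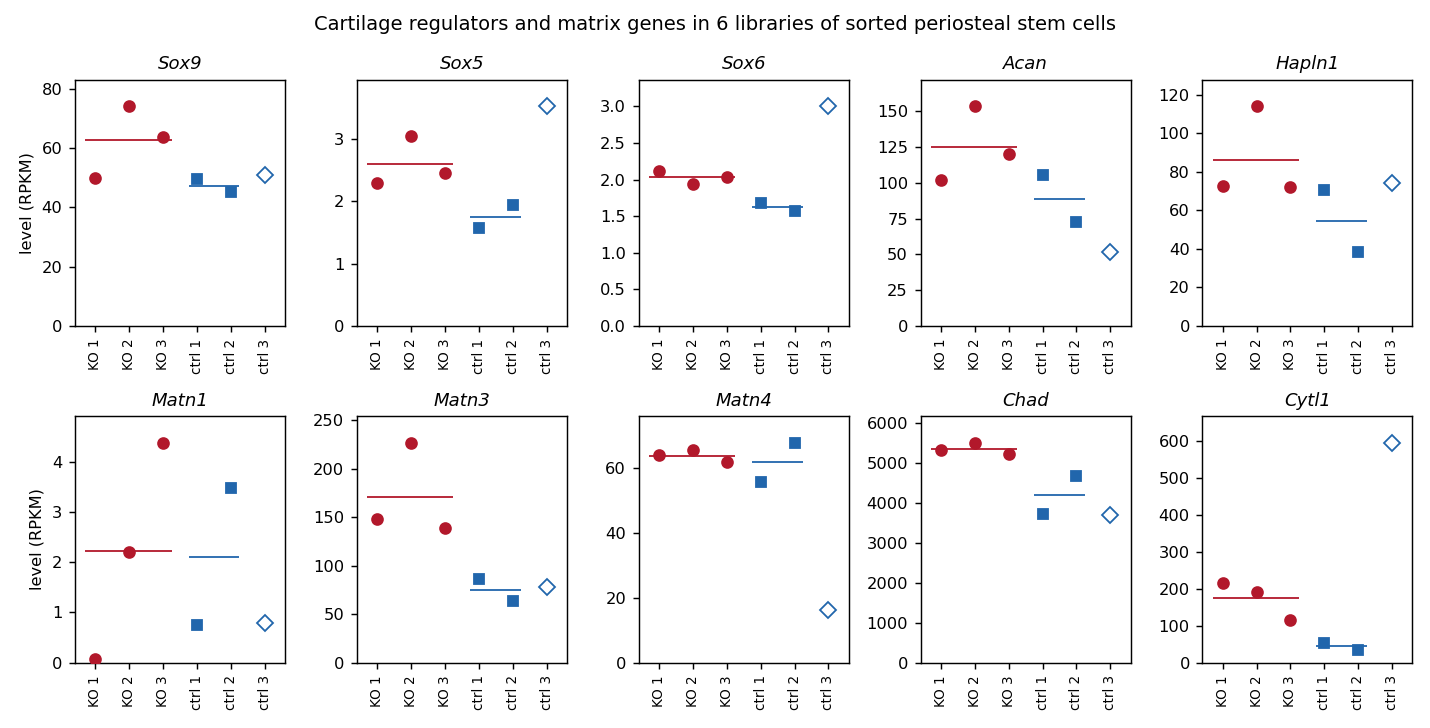
Level in RPKM (linear axis from 0, a scale of its own for each gene) of the 10 genes in the 6 PSC libraries, with libraries labelled KO as red circles, controls 1 and 2 as filled blue squares and control 3, from a table of its own, as an open diamond; lines are group means (KO, n = 3; controls 1 and 2, n = 2). Cytl1 stood at 217, 192 and 115 RPKM in KO against 53.0 and 35.2 RPKM in controls 1 and 2, while control 3 reached 595 RPKM.

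The 3 Sox genes were each higher in all libraries labelled KO than in controls 1 and 2, by amounts that did not pass the test. Sox9, on chromosome 11 from 112782224 to 112787760, had 50.0, 74.1 and 63.7 RPKM in libraries labelled KO, against 49.6 and 45.1 RPKM in controls 1 and 2 (control 3, 50.8 RPKM). KO 1 was level with controls 1 and 3, while KO 2 and KO 3 lay above them. KO libraries averaged 62.6 ± 12.1 RPKM and controls 1 and 2 averaged 47.3 ± 3.20 RPKM (SD, n = 3 and 2), or 0.38 as a log2 fold change in limma (SE 0.168, adjusted p = 0.190).

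Sox5 and Sox6 were low, and neither was called. Sox5, on chromosome 6 from 143828425 to 144781977, had 2.30, 3.05 and 2.46 RPKM in KO, against 1.57 and 1.94 RPKM in controls 1 and 2 (control 3, 3.53 RPKM; log2 fold change 0.39, SE 0.164, adjusted p = 0.178 from limma). Sox6, on chromosome 7 from 115470872 to 116038796, had 2.12, 1.93 and 2.04 RPKM in KO, against 1.67 and 1.57 RPKM in controls 1 and 2 (control 3, 3.00 RPKM; log2 fold change 0.21, SE 0.148, adjusted p = 0.407 from limma). For both genes control 3 was the highest of the 6 libraries. The 95% intervals of the log2 differences ran from 0.0032 to 0.77 for Sox5 and from -0.14 to 0.55 for Sox6.

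The aggrecan and link protein genes, whose products assemble with hyaluronan, were not called either. Acan, on chromosome 7 from 79053483 to 79115099, had 102, 154 and 120 RPKM in libraries labelled KO, against 105 and 72.7 RPKM in controls 1 and 2 (control 3, 51.3 RPKM). KO 1 lay between the controls, so the groups overlapped (log2 fold change 0.49, SE 0.211, adjusted p = 0.179 from limma). Hapln1, on chromosome 13 from 89539796 to 89611652, had 72.6, 114 and 72.0 RPKM in KO, against 70.5 and 38.2 RPKM in controls 1 and 2 (control 3, 74.0 RPKM). It differed by 0.69 on the log2 scale (limma, SE 0.286, adjusted p = 0.169), and KO 1 and KO 3 were close to controls 1 and 3. The exon length used for Hapln1 was 5902 bases in the table of 5 libraries and 5055 bases in that of control 3, and at the longer length control 3 would be at 63.4 RPKM. Hapln1 was the only member whose length differed between the tables.

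Of the matrilin genes only Matn3 was called. Matn3, on chromosome 12 from 8947929 to 8972028, had 148, 227 and 139 RPKM in libraries labelled KO, against 86.2 and 63.2 RPKM in controls 1 and 2 (control 3, 77.7 RPKM). Every KO value lay above all 3 controls. KO libraries averaged 171 ± 48.4 RPKM and controls 1 and 2 averaged 74.7 ± 16.2 RPKM (SD, n = 3 and 2), or 1.16 as a log2 fold change in limma (SE 0.230, adjusted p = 0.0226). The log2 fold change was 1.39 without control 1 and 0.94 without control 2, fits that each leave 1 control library. With all 6 libraries the size was kept and the call was not (1.14, adjusted p = 0.0574 from limma), and scaling by median-ratio size factors gave 0.996 (adjusted p = 0.0642).

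Matn4 and Matn1 were not called, and their groups overlapped. Matn4, on chromosome 2 from 164389393 to 164405160, had 64.2, 65.6 and 61.9 RPKM in KO, against 55.8 and 67.9 RPKM in controls 1 and 2, with the KO values between the controls (log2 fold change 0.05, 95% interval -0.23 to 0.33, adjusted p = 0.813 from limma). Control 3 stood apart at 16.1 RPKM. Matn1, on chromosome 4 from 130944385 to 130955475, had 0.072, 2.21 and 4.38 RPKM in KO, against 0.747 and 3.47 RPKM in controls 1 and 2 (control 3, 0.790 RPKM). These levels stood on 2, 44 and 102 exon reads in KO, against 17 and 75 in controls 1 and 2 and 11 in control 3. Matn1 spread widely inside each group, and its log2 fold change of -0.08 had an interval from -1.60 to 1.45. Leaving out 1 library turned its direction round, to 0.57 without KO 1 and to 0.60 without control 2, and Matn4 turned to -0.09 without control 1.

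Chad had 5310, 5500 and 5225 RPKM in libraries labelled KO, against 3718 and 4665 RPKM in controls 1 and 2 (control 3, 3693 RPKM). All 3 KO values were above all 3 controls, and the KO libraries differed among themselves less than the controls did. KO libraries averaged 5345 ± 141 RPKM and controls 1 and 2 averaged 4191 ± 670 RPKM (SD, n = 3 and 2), and the log2 fold change of 0.36 (SE 0.190) did not pass the test (adjusted p = 0.264 from limma). Chad lies opposite to Acsf2, whose annotated span meets Chad exons and whose own level was 4.43 to 6.11 RPKM, and Matn4 lies opposite to Rbpjl, at 0.953 to 3.74 RPKM. Whether reads were counted by strand is not stated in the sources at hand.

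Cytl1 showed the largest fold change of the 10 genes, and also the largest gap between control 3 and the other controls. Cytl1, on chromosome 5 from 37735519 to 37739820, had 217, 192 and 115 RPKM in libraries labelled KO, against 53.0 and 35.2 RPKM in controls 1 and 2. KO libraries averaged 174 ± 53.2 RPKM and controls 1 and 2 averaged 44.1 ± 12.6 RPKM (SD, n = 3 and 2), or 1.94 as a log2 fold change in limma (SE 0.282, 95% interval 1.28 to 2.59, adjusted p = 0.00800). It was called without any single one of these 5 libraries, with adjusted p between 0.00979 and 0.0479. Control 3 was at 595 RPKM, 13.5 times the mean of controls 1 and 2 and above every KO library. With all 6 libraries the log2 fold change was 0.69 and the call was lost (adjusted p = 0.737 from limma).

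In all, 2 of the 10 members were called higher and 0 lower. Over all 11045 genes tested, 1118 were called (10.1%), of which 934 were higher (8.46%) and 184 lower (1.67%). In 7 of the 10 members every KO library lay above both controls 1 and 2, against 35.6% of all genes tested. The median log2 fold change of the members was 0.38 beside 0.14 over all genes, and 9 of the 10 values were above 0. The members were chosen with earlier results of these data known, so these comparisons with all genes are descriptions only. Median-ratio size factors moved the median of all genes to -0.01 and the calls to 415 higher and 297 lower, and there Cytl1 alone was called among the members (1.77, adjusted p = 0.0177 from limma). With no filter on level neither Cytl1 nor Matn3 passed (adjusted p = 0.0724 and 0.122), and a count test on recovered exon reads called both (adjusted p = 0.00656 and 0.0376 from edgeR).

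**Figure D2:**
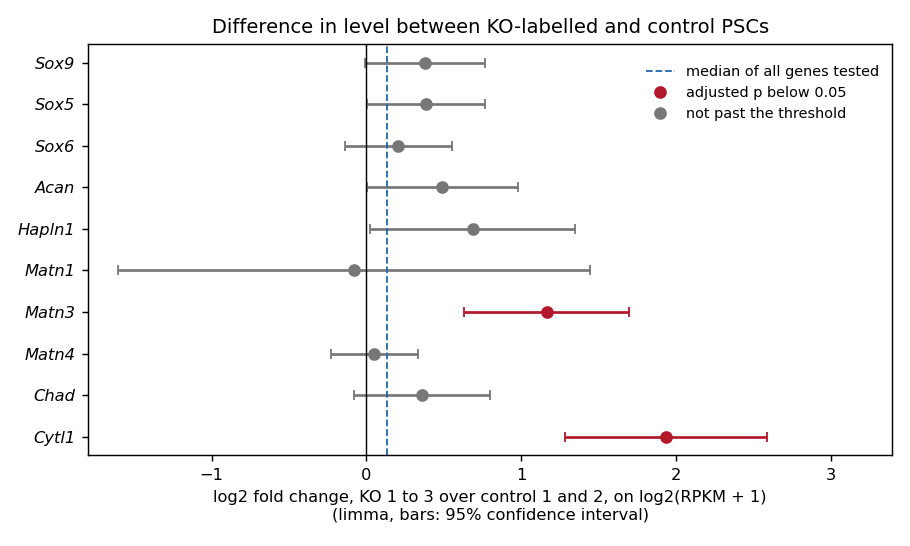
Log2 fold change of KO 1 to 3 over controls 1 and 2 on the log2(RPKM + 1) scale for the 10 genes, with 95% confidence intervals from limma; red points passed an adjusted p of 0.05, the solid line is 0 and the dashed line the median of all genes tested (0.14). Only Cytl1 (1.94) and Matn3 (1.16) passed, and the interval of Matn1 ran from -1.60 to 1.45.

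Libraries differed in these genes within the groups too. KO 2 had the highest value of the 5 libraries for 6 of the 10 members and control 2 the lowest for 6. Without KO 2 both Cytl1 and Matn3 remained called. Of 12 blood cell genes 10 were tested, and 4 were higher in the libraries labelled KO (8.46% of all genes tested were). All 4 were hemoglobins, and control 3 was above KO 1 and KO 3 in each of the 4. Hbb-bs had 174, 299 and 57.2 RPKM in KO, against 17.9 and 10.02 RPKM in controls 1 and 2 (control 3, 479 RPKM). The summed blood markers overlapped between the groups, at 1009 to 2017 RPKM in KO, against 1411 and 899 RPKM in controls 1 and 2 (control 3, 1633 RPKM). S100a8 and S100a9, neither of which was called, carried much of this sum, so it does not speak for the hemoglobins. S100a9 had 817, 664 and 444 RPKM in KO, against 793 and 492 RPKM in controls 1 and 2 (control 3, 250 RPKM). The 11 osteoblast and osteocyte genes summed to 11370 to 14486 RPKM in KO, against 21123 and 15490 RPKM in controls 1 and 2. Their sum in control 3 was 15068 RPKM. Of 10 tested, Dmp1, Ifitm5 and Phex were called lower (1.67% of all genes tested were) and 0 were called higher. In Ifitm5 control 3, at 14.3 RPKM, lay below every KO library. Ibsp went the other way, with 3047, 4405 and 2788 RPKM in KO, against 2197 and 1538 RPKM in controls 1 and 2. Ibsp did not pass the test (log2 fold change 0.86, adjusted p = 0.0745 from limma), and control 3 was at 4176 RPKM. The 5 endothelial genes summed to 4.17 to 12.9 RPKM in KO, against 3.00 and 1.30 RPKM in controls 1 and 2 (control 3, 0.806 RPKM). Pecam1 carried much of the sums in KO, so they do not speak for the rest. Cdh5, Kdr, Emcn and Tek each overlapped between KO and controls 1 and 2. Tek, for one, had 1.86, 0.34 and 0.33 RPKM in KO, against 0.56 and 0.18 RPKM in controls 1 and 2. The part of these markers in the results was not tested. Of the adipocyte markers, 4 of 5 were under 1 RPKM in every library, with Cfd at 0 in all 6 and Lpl at 7.44 to 24.8 RPKM. Of the muscle markers, 4 of 6 were under 1 RPKM in every library, with Tnnt3 at 0.82 to 4.26 RPKM and Mylpf above 1 RPKM in KO 2 alone. Of 8 osteoclast markers, 5 were under 1 RPKM in every library, with Calcr at 0. Nfatc1 was at 29.6 to 61.0 RPKM, Acp5 at 9.18 to 18.1 RPKM and Mmp9 at 3.33 to 20.5 RPKM, and none of them was called.

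Most of the other cartilage matrix genes did not pass the test. Of 24 genes, 5 were higher (8.46% of all genes tested were), 0 lower and 19 were not called, with a median log2 fold change of 0.29. Those with the highest levels were Col2a1, the collagen of cartilage, the small proteoglycan Fmod and the oligomeric matrix protein Comp. Col2a1 had 3734, 6705 and 3715 RPKM in KO, against 3873 and 2876 RPKM in controls 1 and 2 (control 3, 1582 RPKM; log2 fold change 0.44, SE 0.300, adjusted p = 0.380 from limma). KO 1 and KO 3 lay between the controls and KO 2 far above them. Fmod had a log2 fold change of 0.22 and Comp of 0.07, neither of which passed.

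The 5 higher matrix genes were Mia, Snorc, Scrg1, Col9a1 and Cilp. Mia, which encodes a small protein secreted by chondrocytes, had 133, 253 and 129 RPKM in KO, against 79.4 and 55.9 RPKM in controls 1 and 2 (control 3, 147 RPKM; log2 fold change 1.28, SE 0.298). Snorc, a membrane proteoglycan gene of chondrocytes listed under its older name, had 209, 434 and 254 RPKM in KO, against 134 and 102 RPKM in controls 1 and 2 (control 3, 175 RPKM; 1.28, SE 0.290). In Snorc every KO library was above all 3 controls, and in Mia control 3 lay above KO 1 and KO 3. Scrg1 had a log2 fold change of 1.13 (SE 0.175), Col9a1, a chain of type IX collagen, 0.91 (SE 0.218), and Cilp, a protein of the cartilage intermediate layer, 0.87 (SE 0.208). In 4 of these 5 genes control 3 was below every KO library. Col10a1, the collagen of hypertrophic chondrocytes and named after its values were seen, had 1.06, 28.4 and 9.15 RPKM in KO, against 16.0 and 45.7 RPKM in controls 1 and 2 (control 3, 295 RPKM). It was not called (log2 fold change -1.73, SE 0.969, adjusted p = 0.291 from limma), and KO 2 lay above control 1.

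Among 29 tested of 33 chondrocyte regulators, 3 were higher, 1 was lower and 25 were not called, with a median log2 fold change of 0.11. Over all genes tested, 8.46% were higher and 1.67% lower. Sox13, of the same SoxD group as Sox5 and Sox6, had 2.86, 2.94 and 1.88 RPKM in KO, against 1.02 and 0.666 RPKM in controls 1 and 2 (control 3, 1.40 RPKM; log2 fold change 0.94, SE 0.201). Wwp2, a ubiquitin ligase gene expressed in cartilage, had 0.74 (SE 0.139) and Barx1, a homeobox gene, 0.76 (SE 0.134). All 3 were above all 3 controls in every KO library. Sox4, of the SoxC group, was lower, with 11.0, 9.24 and 9.51 RPKM in KO, against 23.7 and 21.6 RPKM in controls 1 and 2 (control 3, 16.7 RPKM; log2 fold change -1.12, SE 0.122). Its call was kept with all 6 libraries and without any single one of the 5. The most abundant regulators beside Wwp2 were Pth1r, the receptor of parathyroid hormone and its related protein (-0.05), and Nppc, the C-type natriuretic peptide (-0.54), and neither passed.

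Genes of glycosaminoglycan metabolism were called in both directions, and most were not called. The list holds genes that build chondroitin sulfate, the sugar chains of aggrecan, and also hyaluronan synthases and hyaluronidases. Of 27 tested of its 30 genes, 2 were higher (8.46% of all genes tested were), 2 lower (1.67% were) and 23 not called. The list median was 0.12 beside 0.14 over all genes. Slc35d1, which carries nucleotide sugars for chondroitin sulfate into the endoplasmic reticulum, had 6.18, 8.08 and 7.04 RPKM in KO, against 3.50 and 2.76 RPKM in controls 1 and 2 (control 3, 3.00 RPKM; log2 fold change 0.97, SE 0.154). Ugdh, which makes UDP-glucuronic acid, had 0.80 (SE 0.181). Chpf2, a chondroitin polymerizing factor, had -0.58 (SE 0.137) and Ust, a uronyl sulfotransferase, -0.54 (SE 0.119). Control 3, at 12.8 RPKM, was as low as the KO libraries in Chpf2, where they had 15.4, 13.2 and 14.5 RPKM against 24.7 and 19.5 RPKM in controls 1 and 2. The most abundant genes, Chpf (0.12), Chst12 (-0.01) and Papss2 (0.53), did not pass.

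Of the 9 genes of aggrecan-degrading proteases and their inhibitor, 1 was lower and 8 were not called, with a median of 0.04. Mmp13, the collagenase of hypertrophic cartilage and bone, had 600, 445 and 436 RPKM in KO, against 808 and 1329 RPKM in controls 1 and 2 (control 3, 2383 RPKM; log2 fold change -1.08, SE 0.239). All KO libraries were below all 3 controls. Timp3, the inhibitor of these enzymes, had a log2 fold change of 0.04 and Mmp3, stromelysin, also 0.04. Adjusted p-values of the called genes of the 4 lists ran from 0.00317 to 0.0403 in limma. Over the 4 lists, which hold 89 tested genes, 10 were higher and 4 lower, beside 8.46% higher and 1.67% lower over all genes tested. Left out one at a time, KO 3, control 1 and control 2 brought the higher calls down to 4, 2 and 1, and KO 1, KO 2, KO 3, control 1 and control 2 brought the lower calls to 2, 1, 1, 2 and 2. With all 6 libraries Scrg1, Slc35d1 and Sox4 kept their calls.

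**Figure D3:**
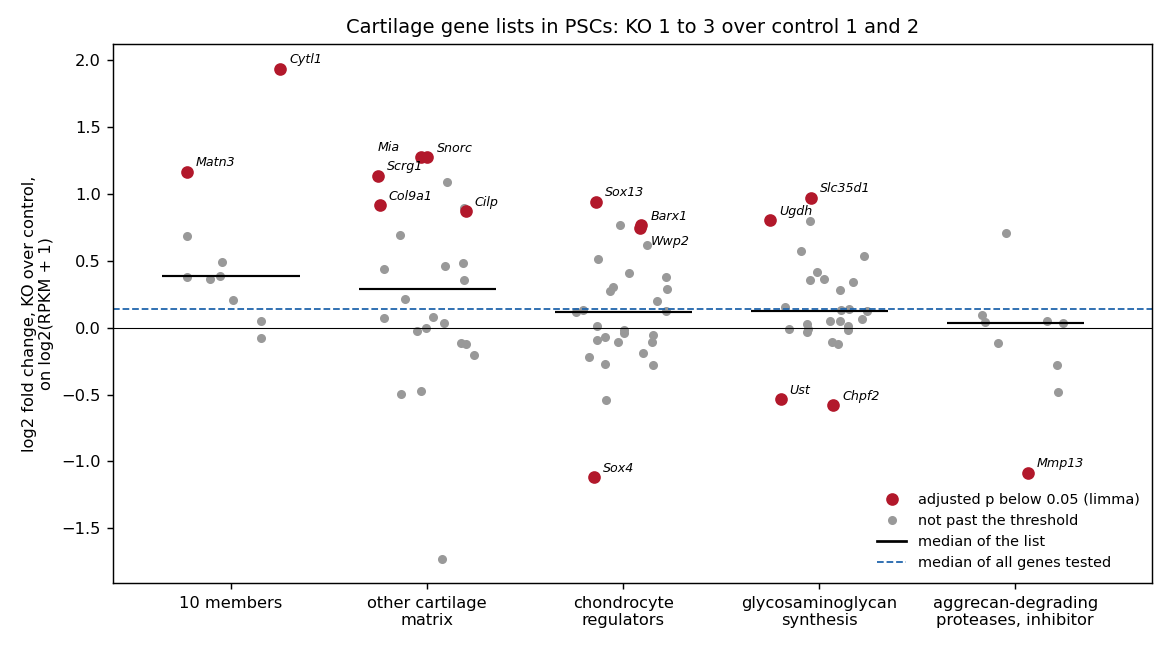
Log2 fold change of KO 1 to 3 over controls 1 and 2 on the log2(RPKM + 1) scale for each tested gene of 5 lists (1 point a gene, spread sideways for visibility), with called genes in red and named, list medians as black bars and the median of all genes tested (0.14) dashed. Medians ran from 0.04 for the proteases and inhibitor to 0.38 for the 10 members, and each list held genes on both sides of 0.

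The share of a gene's reads that lay in introns was deposited for the PSCs, and such reads can come from RNA that is not fully spliced. It was tested on the scale of log2 odds with limma over 10697 genes, of which 9 were called (0.0841%) and 1746 had an unadjusted p under 0.05. No member was called. Over all genes the intron share was 10.4%, 9.85% and 9.64% in libraries labelled KO, against 8.30% and 8.93% in controls 1 and 2 and 11.8% in control 3.

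Sox5 and Sox6, whose introns are very long, had most of their reads in introns. The share of Sox5 was 53.9%, 54.5% and 52.8% in KO, against 63.1% and 59.6% in controls 1 and 2 and 53.9% in control 3. It was lower in every KO library than in controls 1 and 2, and level with control 3 (difference in log2 odds -0.45, SE 0.136, adjusted p = 0.213 from limma). Counting error alone allowed 50.8% to 57.0% in KO 1 and 59.4% to 66.6% in control 1 (95% Wilson intervals, which cover counting error only). In control 2 it allowed 56.0% to 63.1%, which overlaps the interval of KO 1. The share of Sox6 was 65.8%, 65.5% and 60.3% in KO, against 68.0% and 71.2% in controls 1 and 2 and 60.7% in control 3 (-0.37, SE 0.153, adjusted p = 0.327 from limma). Several antisense genes lie within Sox5 and Sox6, at no more than 1.18 RPKM in any PSC library. That value is Sox5os1 in control 3, where Sox5 had 3.53 RPKM, and the span of Sox5os1 meets a Sox5 exon. Sox5os1 was at 0 in KO 1 to 3 and in controls 1 and 2.

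Matn3 and Cytl1 had the largest relative gaps in intron share between the groups among members with intron reads in both, and limma called neither. The share of Matn3 was 2.93%, 2.93% and 2.69% in KO, against 1.60% and 1.63% in controls 1 and 2 and 0.792% in control 3. The groups did not overlap (0.68, SE 0.291, adjusted p = 0.335 from limma), and its intron reads were 187, 205 and 134 in KO, against 48 and 34 in controls 1 and 2 and 13 in control 3. Cytl1 had 3, 0 and 0 intron reads in KO beside 3189, 2009 and 1407 exon reads, against 10 and 2 intron reads beside 637 and 401 exon reads in controls 1 and 2, and 9 beside 4375 in control 3. Its share was 0.0940% in KO 1, 1.55% in control 1 (interval 0.842% to 2.82%), 0.496% in control 2 and 0.205% in control 3, and the counts of 0 allow up to 0.149% in KO 2 and 0.213% in KO 3. The limma difference was -1.45 (SE 0.479, adjusted p = 0.240). A test of the interaction of group and read class on the recovered reads, added after the data were seen, called Cytl1 (-4.51, adjusted p = 0.00979 from edgeR) and left Matn3 short of the threshold (0.84, adjusted p = 0.0867), with 3.04% of 13622 genes called.

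Sox9, Acan, Hapln1, Matn4 and Chad had low intron shares with no called difference. Acan had 4.86%, 5.77% and 5.28% in KO, against 3.99% and 4.26% in controls 1 and 2 and 5.66% in control 3. Chad had 0.419%, 0.397% and 0.303% in KO, against 0.285% and 0.257% in controls 1 and 2 and 0.169% in control 3. Both were higher in every KO library than in controls 1 and 2, and in Acan control 3 lay inside the KO range. Sox9 averaged 1.39 ± 0.418% (SD, n = 3) in KO and 1.86 ± 0.662% (SD, n = 2) in controls 1 and 2, Hapln1 3.61 ± 0.412% and 2.99 ± 1.04%, and Matn4 2.11 ± 0.310% and 2.07 ± 0.772%. Matn1 had 1 intron read, in KO 1, and none in the other 5 libraries.

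**Figure D4:**
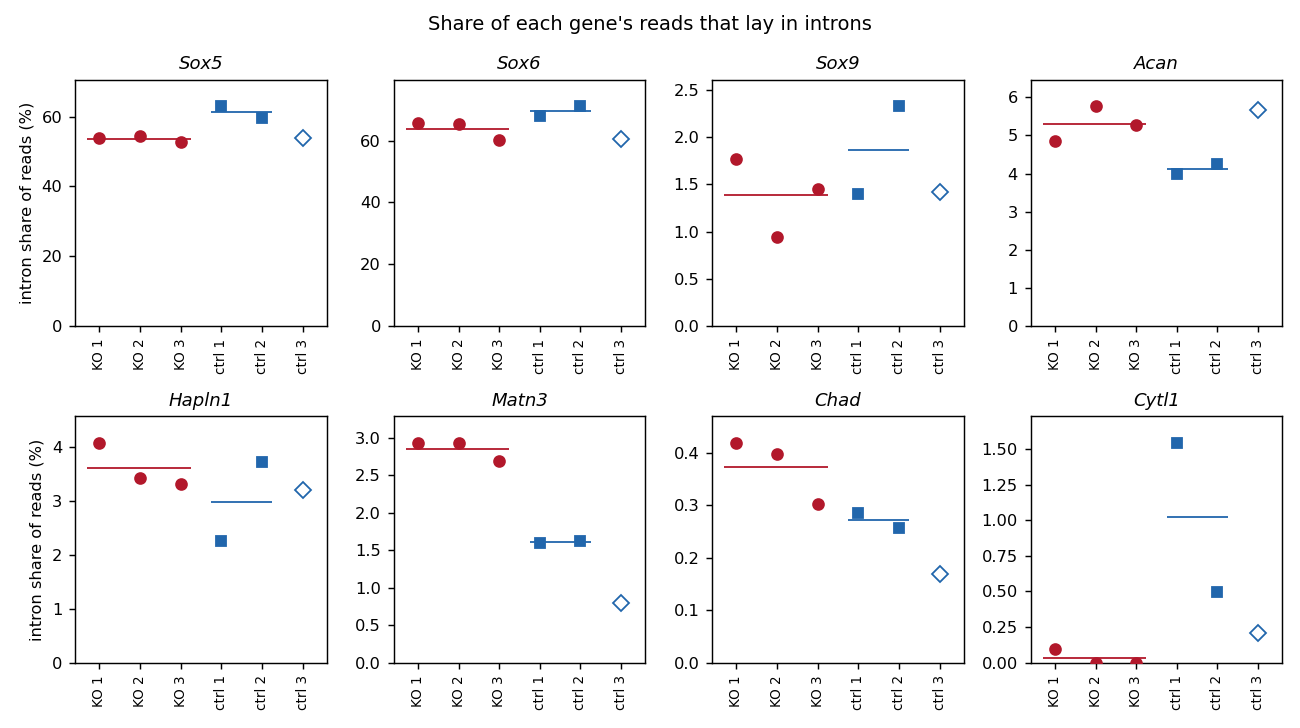
Share of reads in introns (percent, linear axis from 0, a scale of its own for each gene) of 8 genes in the 6 PSC libraries, with libraries labelled KO as red circles, controls 1 and 2 as filled blue squares, control 3 as an open diamond and group means as lines (KO, n = 3; controls 1 and 2, n = 2). Sox5 lay at 53.9%, 54.5% and 52.8% in KO against 63.1% and 59.6% in controls 1 and 2, and Matn3 at 2.69% or more in KO and at 1.63% or less in all controls.

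In osteoclasts the same genes had few or no reads. The authors deposited raw counts, with totals of 3608940, 1234919 and 984885 in libraries labelled KO and 2513440, 2606215 and 2805824 in controls. Prmt5 was lower there, with 29.0, 37.2 and 34.4 CPM (counts scaled to the library total, with TMM factors) in KO, against 58.4, 71.5 and 67.4 CPM in controls (log2 fold change -1.01, SE 0.160, adjusted p = 0.0349 from edgeR). No member reached more than 5 reads in any library, and none passed the filter on low counts that left 10724 genes, of which 4 were called (0.0373%) and 510 had an unadjusted p under 0.05. No member was called by DESeq2 either.

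Chad and Cytl1 had 0 reads in all 6 osteoclast libraries, which allows up to 3 reads a library, or 0.831, 2.43 and 3.05 CPM in KO and 1.19, 1.151 and 1.07 CPM in controls. Sox9 had 1, 0 and 0 reads in KO, against 4, 2 and 3 reads in controls. Without the filter edgeR gave Sox9 an adjusted p of 0.812 over all genes. Acan was the only member with a read in every library, with 4, 2 and 1 reads in KO and 1, 4 and 3 reads in controls. Sox5 had 5, 0 and 0 reads in KO and 1, 3 and 3 in controls, Sox6 3, 0 and 0 in KO and 2, 1 and 1 in controls, and Matn4 2, 1 and 0 in KO and 1, 3 and 0 in controls. Matn3, Matn1 and Hapln1 summed to 3, 2 and 1 reads over the KO libraries and to 1, 0 and 1 over the controls. KO 2 and KO 3 were the shallowest libraries, and what difference this depth could show was not tested.

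Genes whose pattern over the 6 PSC libraries was most like that of the members were found by the correlation of log2(RPKM + 1) with the mean of the 10 members. That mean was 5.54, 5.95 and 5.73 in KO, against 5.20 and 5.16 in controls 1 and 2 and 5.41 in control 3. The closest were Nudt17 (r = 0.993), Snhg9 (0.989), Tsen34 (0.986), the cartilage gene Snorc (0.986) and Rnf25 (0.984). These are descriptions over 6 libraries of 2 tables, taken from 10944 genes. Of the 5, Snorc was in a list of cartilage genes, with its highest value of 434 RPKM in KO 2, and Nudt17 was low, at 1.08 to 2.20 RPKM.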

How the data were processed

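Values were taken as deposited, and the 10 members and all gene lists were chosen with earlier results of these data known. Libraries were read on an Ion Torrent Proton. Per the submitters' processing notes, kallisto 0.46.0 was used on GRCm38 after Trim Galore 0.6.4 and FastQC 0.1.1.8. For the RPKM and intron shares, the aligner and the use of strand were not given in the sources used here. Osteoclast values were raw counts for each gene, as deposited, beside the authors' own p-values, FDR and fold changes, which were not used. For PSCs the authors deposited RPKM, scaled to exon length and mapped reads, and, for each gene, the part of its reads that lay in introns. Control 3 was matched to its own table by name, and 0 columns of values were left unmapped. The paper gives 3 mice per group for PSCs, and for osteoclasts p-values measure the spread between libraries, whose mice are not stated.

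PSC levels were tested on log2(RPKM + 1), a scale that understates changes of low genes, with limma 3.58.1 (trended moderation) in R 4.3.3 for genes with a mean of at least 1 RPKM. Intron shares were tested as log2 odds with an offset of 0.005 where all fitted libraries gave a share and 1 or more had intron reads. Osteoclast counts were tested with edgeR 4.0.16 (TMM scaling, quasi-likelihood) after its filter on low counts, and with DESeq2 1.42.0 as the alternative. Tests were two-sided, fitted on all genes, and called at a Benjamini-Hochberg adjusted p under 0.05. From the RPKM steps, exon reads came out whole to a tolerance of 0.02 for 26127 of 26128 detected genes, all 10 members among them. Of these genes, 20344 were whole at the exon length listed for control 3. For the others a length was searched that made the reads whole. The deposited exon reads of control 3 were given back for 15741 of 15741 genes, with its scale set from those same reads. The counts of 26127 and 15741 are thus no independent check of the recovery. Counts per library limit the precision, and a count of 0 was taken to allow 3 reads. The unit of the intron share was planned as a fraction, and cells without a number in it were left out. Positions and overlaps are from GENCODE M21, and start regions from RefSeq. Named were all members, the called genes of each cartilage list (at most 6 in each direction), the 3 with the highest mean RPKM, Prmt5, and the 5 genes most like the members. The scripts were tested on simulated data. Alternatives were other scalings, filters, pseudocounts, all 6 PSC libraries, a replicate block, and leaving out each library.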

Additional observations from a re-analysis of the deposited data

Results flagged for a closer look

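Cytl1 in the library PSC control 3 was at 595 RPKM, on 4375 exon reads. It was noted because control 3 takes no part in the main PSC comparison and its value was more than 1.5 times the highest of the other 5 libraries, which was 217 RPKM in KO 1. No other member did so. The cause was not tested. Groups of 3 libraries are too small for a test of single outlying values.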

How the results depend on the processing

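Cytl1 and Matn3, the 2 members called in PSCs, kept their direction under all 13 alternatives for the level; Cytl1 passed in 11 and Matn3 in 7. The members called higher were 0 with all 6 PSC libraries and with no filter on level, 1 with median-ratio size factors, and 1 to 2 without one library. In the wider cartilage lists 10 genes were higher and 4 lower. All 6 libraries gave 2 and 1, no filter 0 and 1, median-ratio size factors 3 and 5, and edgeR on recovered exon reads 6 and 5. Leaving out 1 KO library gave 4 to 9 higher and 1 to 2 lower. Over all genes 934 were higher and 184 lower, against 169 and 38 with all 6 libraries, 199 and 49 with no filter, 415 and 297 with median-ratio size factors, 533 and 382 in edgeR, and 259 to 511 and 65 to 109 without one library. The no-filter fit tested 26128 genes in place of 11045; the cause of the differences was not tested.

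Replicate numbers did not pair the samples (r from -0.08 to 0.07 between libraries of one number). With a replicate block, which uses fewer libraries since KO 3 has no partner, 1 member and 0 and 0 list genes were called, and 59 and 8 genes over all, with Cytl1 called (2.21, adjusted p = 0.0318 from limma) and Matn3 not (1.30, adjusted p = 0.103); in osteoclasts the block called 0 and 0 genes.

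For the intron share, 0 members were called in each limma setting and 1, Cytl1, was lower in the edgeR interaction (-4.51). Over all genes 7 shares were higher and 2 lower, against 0 and 0 with all 6 libraries and with the block, 1 and 1 at an offset of 0.05, 250 and 17 at a mean RPKM of at least 5, 387 and 27 in the edgeR interaction, and 0 to 2 and 1 to 2 without one library. In osteoclasts 2 genes were higher and 2 lower, against 2 and 1 in DESeq2, 29 and 17 with no filter, 0 and 0 with at least 10 reads in every library, and 0 to 6 and 0 to 3 without one library; no member was called in any.

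Directions turned for the levels of Matn1 and Matn4 and for the intron shares of Matn4 and Hapln1. In the main fit the intron share of Hapln1 differed by 0.27 in log2 odds. For Matn1 the level was 0.14 with all 6 libraries, 0.0074 at a pseudocount of 10 and between -0.76 and 0.60 without one library (0.57 without KO 1, 0.60 without control 2). For Matn4 it was -0.12 with median-ratio size factors, -0.11 in edgeR on recovered exon reads and between -0.087 and 0.19 without one library (negative without control 1). The log2 odds of the Matn4 intron share were -0.072 with all 6 libraries and between -0.27 and 0.36 without one library (negative without KO 2 and without control 1), and those of Hapln1 were between -0.045 and 0.59 (negative without control 1). Matn1 could not be tested in the interaction and with at least 1 RPKM in every library. Depth limits the osteoclast counts and the intron shares of Matn1 and Cytl1.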
